A study of Vuilleminia comedens with 3 samples.

Results

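The transcripts described here are those of Vuilleminia comedens, a crust-forming wood-decay fungus, whose best database match is named as a lipase, phospholipase, cutinase, carboxylesterase, other esterase or alpha/beta-hydrolase. Names pointing to xylan, pectin, glucuronoyl or carbohydrate esterases, to phosphodiesterases or to sterols were left out. This gave 276 of the 22605 transcripts with a match (1.22%), out of 81106 assembled transcripts. They came from 192 assembler genes and pointed to 121 different database entries. RNA was taken from beech blocks colonised for about 8 weeks by the single strain VcWVJH1 and then set in pairs, the same strain on both sides, for 7 days at 20 °C. Only the side of each block that touched its partner was used. Conditions shared by all samples also included 0.5% malt extract, blocks of 2 cm3 and removal of a band on day 3. The 3 libraries, called X, Y and Z because their columns carry no names, are replicates of this 1 group, so there was no contrast between conditions and no difference was tested.

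Lipases release fatty acids from acylglycerols, and phospholipases cleave membrane lipids at acyl or phosphate bonds. Carboxylesterases act on shorter or more soluble esters, and cutinases on the polyester of plant surfaces. Many of these enzymes share the alpha/beta-hydrolase fold, in which a serine, an acid and a histidine form the active site. The same fold also serves enzymes that are not esterases, such as epoxide hydrolases and some peptidases, so that the name alone gives a fold and no substrate. In a wood-decay fungus, enzymes of this kind can act on storage lipids of the wood, on membrane turnover or on esters within the cell wall.

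The libraries held 111754018, 68151997 and 64236917 counts, of which a pair of transcripts outside this family took between 67.0% and 70.1%. Levels of single transcripts are given as RPKM, reads per kilobase of transcript and per 1000000 counts of the library. Summed reads are given as residual CPM, reads per 1000000 counts outside that pair. Values are means ± SD over the 3 libraries, and the labels call these separate biological replicates. In bulk RNA, fewer cells of a kind and less RNA per cell cannot be told apart.

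The family took a similar part of the reads in the 3 libraries. It held 279280 counts in library X, 200777 in library Y and 192707 in library Z. As a share of the counts outside the 2 dominant transcripts this was 0.835% in library X (exact Clopper-Pearson 95% interval 0.832 to 0.838), 0.893% in library Y (0.889 to 0.897) and 0.976% in library Z (0.972 to 0.980). These intervals cover counting error only and did not overlap, while the highest and lowest library differed 1.17-fold. Summed RPKM was 1647, 1918 and 1917 in libraries X, Y and Z, or 1827 ± 156 (SD, n = 3).

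Most of this came from transcripts known only by their fold. The 189 alpha/beta-hydrolases summed to 7216 ± 746 residual CPM (SD, n = 3), which was 80.1% of the family. The class of other esterases, with 12 transcripts, had 640 ± 59.9, and phospholipases and lysophospholipases, with 25, had 527 ± 91.6 (SD, n = 3 each). Much of the latter sum came from names that are not specific to phospholipases. Phospholipase D/nuclease had 331 ± 62.1, phospholipase A-2-activating protein 65.5 ± 24.3 and phospholipase C/P1 nuclease 29.8 ± 2.17 residual CPM (SD, n = 3 each). The 17 transcripts named as lipases reached 305 ± 48.5 residual CPM (SD, n = 3), or 3.38% of the family. Carboxylesterases (2 transcripts) had 135 ± 25.4 and thioesterases (15) 100.5 ± 16.2, while cutinases (2) had 39.8 ± 3.02 and feruloyl esterases (7) 31.8 ± 18.3 (SD, n = 3 each). At the low end were protein methylesterases (5), with 12.7 ± 2.31, and phosphoesterases (2), with 3.77 ± 1.41 (SD, n = 3 each). Other esterases and phospholipases were close in library Y, with 650 and 623 residual CPM, and feruloyl esterases stood above cutinases in library Z, with 52.5 and 42.1.

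**Figure D1:**
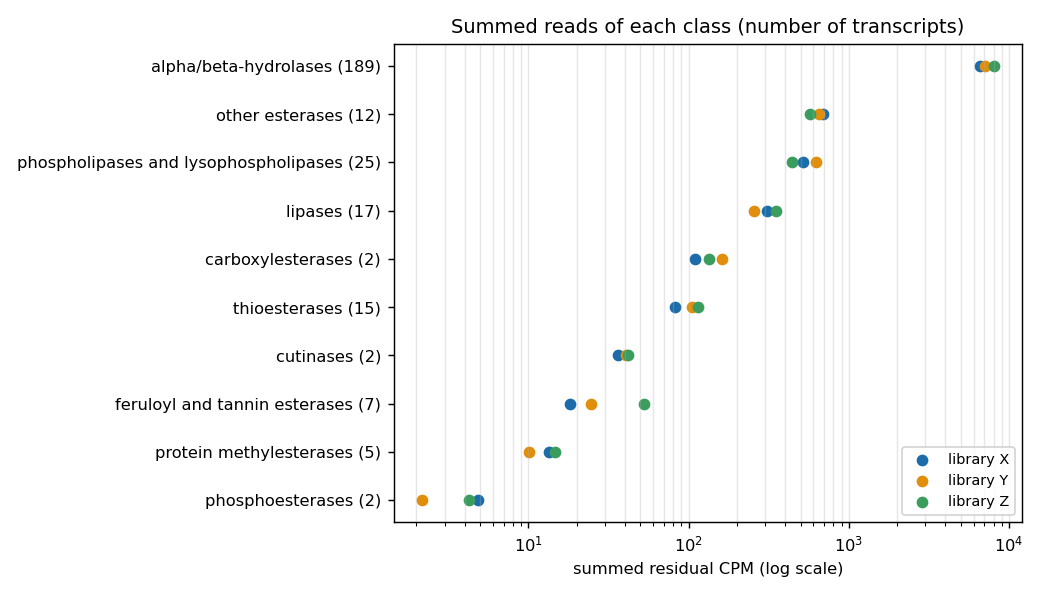
Summed residual CPM (log axis) of each class in libraries X, Y and Z, with the number of transcripts in parentheses. Alpha/beta-hydrolases lie between 6563 and 8029 in all 3 libraries, and feruloyl esterases spread from 18.2 in library X to 52.5 in library Z.

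The reads were concentrated in few members. The most abundant transcript held 28.1% of the summed RPKM, the first 5 held 46.0% and the first 20 held 76.0%. Ranked by residual CPM, which is not divided by length, the first held 22.2% of the summed residual CPM. The first 5 on that measure held 45.0% and the first 20 held 75.6%. A mean of at least 10 RPKM was reached by 27 of the 276 members (9.78%), against 10.8% of all transcripts with a match. The median member had 0.569 RPKM and the median matched transcript 0.488. Among transcripts of at least 500 bp the medians were 1.27 RPKM for 168 members and 1.63 RPKM for 12675 matched transcripts. With all lengths, the family's median was 0.565, 0.562 and 0.529 RPKM in libraries X, Y and Z. Over all matched transcripts it was 0.589, 0.459 and 0.454, so the family lay below in library X and above in libraries Y and Z. The family's median was thus above or below that of all matched transcripts depending on the library and on whether fragments were counted.

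The leading member was TRINITY_DN21528_c0_g1_i1, an alpha/beta-hydrolase of 1223 bp matched to Trametes versicolor, a white-rot polypore. It had 69760 counts in library X, 56676 in library Y and 27388 in library Z. These correspond to 510, 680 and 349 RPKM, or 513 ± 166 (SD, n = 3). Library Y was the highest and library Z the lowest, 1.82-fold apart in residual CPM. It ranked 24th among all matched transcripts and its mean stood 5.01-fold above that of the next member, TRINITY_DN24256_c0_g1_i1. That ratio hung on library Z. It was 11.1 without library Z, or 8.25 over TRINITY_DN23009_c1_g1_i2, then the next member, 3.28 without library Y, and 1.74 in library Z alone. The same T. versicolor entry was the best match of 4 shorter transcripts of 246 to 638 bp, the highest of which, TRINITY_DN18054_c1_g1_i1, had 5.62 RPKM. Without the leading member the family summed to 1314 ± 226 RPKM (SD, n = 3).

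The second member, TRINITY_DN24256_c0_g1_i1, an alpha/beta-hydrolase matched to PUNSTDRAFT_105464 of Punctularia strigosozonata, was also the most uneven of all members with at least 10 reads in every library. It had 61.9 RPKM in library X, 45.3 in library Y and 200 in library Z, a mean of 102 ± 84.8 (SD, n = 3). Its residual CPM in library Z was 4.74-fold that in library Y, and its mean RPKM without library Z was 53.6. The mean of this transcript therefore leaned on 1 library.

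The next group of abundant transcripts shared 1 database entry, the alpha/beta-hydrolase PUNSTDRAFT_128382, with 6 transcripts from 4 assembler genes. The isoforms TRINITY_DN23009_c1_g1_i2 and TRINITY_DN23009_c1_g1_i1, of 2525 and 2521 bp, had 89.1 ± 30.6 and 69.3 ± 20.5 RPKM (SD, n = 3). TRINITY_DN26207_c0_g1_i1, of 1394 bp, had 50.9, 54.9 and 86.6 RPKM in libraries X, Y and Z. TRINITY_DN16665_c0_g1_i1 and TRINITY_DN16665_c0_g1_i2, of 617 and 603 bp, had 23.0 ± 10.2 and 20.2 ± 9.85 (SD, n = 3). Library Z was the highest for all 5 of these transcripts, by 1.69-fold to 2.59-fold over the lowest library, against 29.8% of all matched transcripts. These 5 came from only 3 assembler genes with 1 entry in common. The sixth, TRINITY_DN2629_c0_g1_i1, went the other way, with library Y the highest, 2.19-fold over library X, on only 19, 28 and 21 counts.

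Some other abundant alpha/beta-hydrolases were steadier. TRINITY_DN25086_c1_g1_i1 had 62.4, 72.3 and 63.5 RPKM in libraries X, Y and Z, and its residual CPM varied by 1.06-fold. TRINITY_DN23339_c0_g1_i1 (PUNSTDRAFT_105224) had 42.1, 54.2 and 54.6 RPKM, and TRINITY_DN29091_c1_g1_i2 (PUNSTDRAFT_115590) 25.9, 30.9 and 34.2. Both kept within 1.28-fold in residual CPM. TRINITY_DN24072_c0_g1_i1 had 58.2 ± 10.5 RPKM, TRINITY_DN13176_c0_g1_i1 53.7 ± 11.5, TRINITY_DN18252_c0_g1_i1 32.6 ± 6.49 and TRINITY_DN26688_c3_g1_i1 28.6 ± 8.17 (SD, n = 3 each). Their folds in residual CPM were 1.40, 1.54, 1.36 and 1.64, in this order. TRINITY_DN24691_c0_g1_i1 was uneven, 2.33-fold apart in residual CPM. It ran lowest in library X, with 24.2 RPKM, against 45.6 in library Y and 58.0 in library Z. The means from the fifth to the ninth member lay between 66.1 and 50.3 RPKM and differed by less than the largest of their SDs, 19.5 RPKM, so that their order is not settled by 3 libraries.

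**Figure D2:**
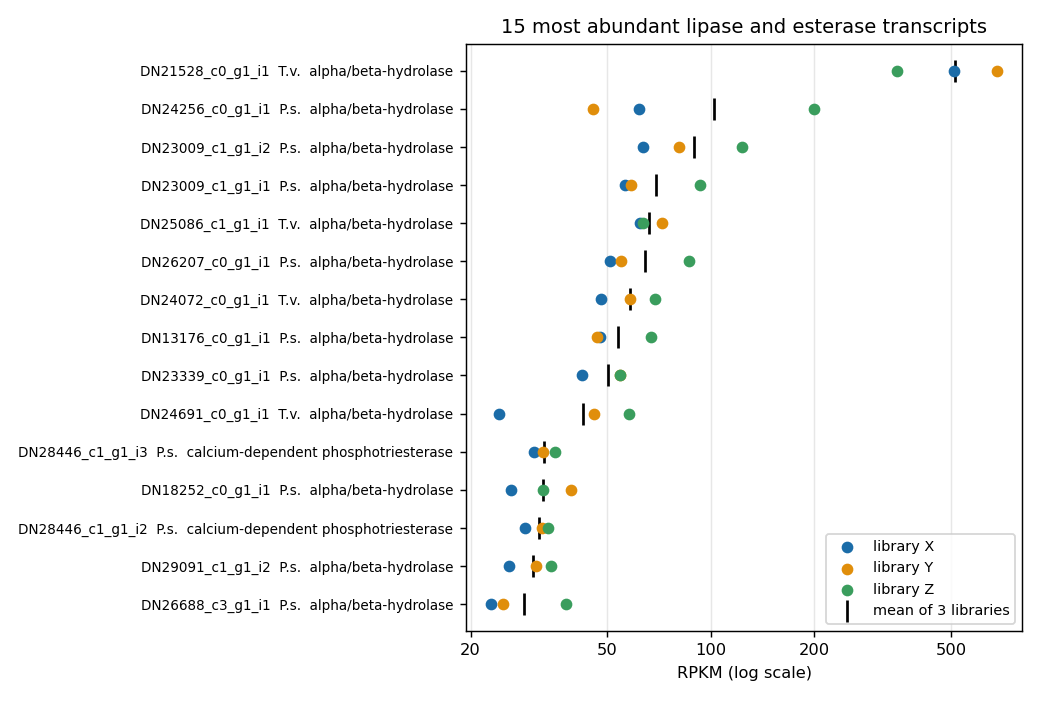
RPKM (log axis) of the 15 most abundant members in each library, with a black tick at the mean; P.s. and T.v. mark a best match in P. strigosozonata or T. versicolor. The first transcript lies at 349 to 680 RPKM and all others below 200, with library Z farthest to the right for 12 of the 15.

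Among the transcripts named as lipases, a carotenoid ester lipase precursor stood out. Enzymes of this name, known from the oyster mushroom genus Pleurotus, cleave fatty acid esters of carotenoids. TRINITY_DN2957_c0_g1_i1, matched to STEHIDRAFT_157703 of Stereum hirsutum, had 31.1, 30.5 and 21.2 RPKM in libraries X, Y and Z, a mean of 27.6 ± 5.56 (SD, n = 3). It alone made 159 of the 305 residual CPM of the lipases. The other 6 transcripts of this name had at most 1.52 RPKM, and 4 of them had fewer than 15 counts in all.

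Extracellular GDSL-like lipase/acylhydrolase, a secreted type named after the motif around its active serine, was found as 3 isoforms of 1 assembler gene. TRINITY_DN23033_c1_g1_i2 had 3.07, 3.01 and 13.1 RPKM in libraries X, Y and Z, a mean of 6.40 ± 5.81 (SD, n = 3), and 3.04 without library Z. The other isoforms, TRINITY_DN23033_c1_g1_i1 and TRINITY_DN23033_c1_g1_i3, had 2.82 ± 1.76 and 2.31 ± 1.77 RPKM (SD, n = 3), and 1.80 and 1.28 without library Z. In all 3 isoforms library Z was the highest and library Y the lowest, by 2.88-fold to 4.67-fold. The products lipase/ esterase (PUNSTDRAFT_95266, 2 isoforms) and lipase (PUNSTDRAFT_122104, 4 isoforms) had 4.57 RPKM at most in TRINITY_DN28565_c0_g1_i1 and 0.937 at most in TRINITY_DN27214_c1_g2_i1.

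Carboxylesterase, which splits an ester into an acid and an alcohol, was the name of 2 transcripts. TRINITY_DN28604_c0_g1_i3, of 2995 bp, had 11.0, 17.7 and 13.8 RPKM in libraries X, Y and Z, a mean of 14.2 ± 3.40 (SD, n = 3). An isoform of the same assembler gene with no database match, TRINITY_DN28604_c0_g1_i4, had a similar 14.3 ± 4.01 RPKM (SD, n = 3). The second carboxylesterase, TRINITY_DN17441_c0_g1_i1, had 21, 3 and 6 counts. A carboxyesterase spelled without the l (PUNSTDRAFT_47730) was counted with other esterases and reached 2.58 ± 0.883 RPKM (SD, n = 3) in TRINITY_DN28165_c0_g1_i1.

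Cutinases and feruloyl esterases, both able to act on esters of plant polymers, were 9 transcripts from 3 assembler genes. The cutinase-domain transcripts TRINITY_DN29266_c0_g1_i3 and TRINITY_DN29266_c0_g1_i1 had 1.87 ± 0.252 and 1.80 ± 0.170 RPKM (SD, n = 3) and were even between libraries, at most 1.25-fold apart. Feruloyl esterases release ferulic acid from plant cell walls. TRINITY_DN23863_c0_g1_i5 had 0.421, 0.796 and 1.85 RPKM in libraries X, Y and Z, and TRINITY_DN23863_c0_g1_i1 had 0.436, 0.715 and 1.87. Library Z was the highest for all 7 feruloyl esterase transcripts, against 29.8% of all matched transcripts, but these came from only 2 assembler genes. Over 2-fold apart, between libraries X and Z, were 4 of the 7, against 17.3% of all matched transcripts, and all 4 were isoforms of TRINITY_DN23863_c0_g1. Without library Z the means of these 2 isoforms were 0.609 and 0.575 RPKM, in the order above. Both rest on 430 and 415 reads in total.

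In the whole class of phospholipases and lysophospholipases, 15 transcripts had 10 reads or more in every library. Library Y was the highest for 9 of the 15, library X for 5 and library Z for 1. Over all matched transcripts the shares were 34.3%, 35.9% and 29.8%, in the same order. These 15 came from only 8 assembler genes, and by the best-read member of each the counts were 5 for library Y, 2 for library X and 1 for library Z. Phospholipase D cuts the head group from phosphatidylcholine and leaves phosphatidic acid. TRINITY_DN29963_c0_g1_i1, named phospholipase D/nuclease (PUNSTDRAFT_90094), had 21.9, 32.5 and 21.1 RPKM in libraries X, Y and Z, a mean of 25.2 ± 6.36 (SD, n = 3). The name covers a superfamily that also holds nucleases. TRINITY_DN30012_c0_g1_i2, named phospholipase D (PUNSTDRAFT_81860), had 7.75, 9.24 and 5.65 RPKM.

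Phospholipase B, which can remove both acyl chains, was represented by 5 transcripts at 0.980 to 1.40 RPKM, all matched to PUNSTDRAFT_124905. The lysophospholipase TRINITY_DN28955_c0_g1_i3 had 1.38 ± 0.166 RPKM (SD, n = 3), while the other 4 lysophospholipases had between 6 and 24 counts in all. Phospholipase C/P1 nuclease, a name for a zinc-dependent fold shared by lipid- and nucleic acid-cleaving enzymes, reached 3.06 ± 0.400 RPKM (SD, n = 3) in TRINITY_DN28216_c0_g1_i4. The list also took in phospholipase A-2-activating protein, whose yeast counterpart binds ubiquitin and is no lipase. Its isoform TRINITY_DN29027_c0_g1_i1 had 1261, 1318 and 408 counts, 2.84-fold apart in residual CPM, and was the 1 transcript of the class over 2-fold.

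Several members carry the word esterase in a name that does not point to lipids, and what they act on was not tested. Calcium-dependent phosphotriesterase (PUNSTDRAFT_46818), the name of a beta-propeller fold, was the best match of 6 transcripts. Its isoforms TRINITY_DN28446_c1_g1_i3 and TRINITY_DN28446_c1_g1_i2 had 32.8 ± 2.40 and 31.5 ± 2.51 RPKM (SD, n = 3), and were among the 15 most abundant members. A further isoform of that assembler gene, TRINITY_DN28446_c1_g1_i4, was matched to a D-lactonohydrolase-like protein and had 39.2 ± 2.97 RPKM (SD, n = 3). TRINITY_DN17665_c0_g2_i1, another match to PUNSTDRAFT_46818, had 83, 24 and 11 counts and was 4.45-fold higher in library X than in library Z. Its mean of 0.758 RPKM became 0.470 without library X.

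Cephalosporin esterase, named for its action on an antibiotic, was matched in Moniliophthora roreri by a pair of isoforms of 1913 bp. TRINITY_DN28881_c0_g1_i1 had 5199, 3148 and 1150 counts in libraries X, Y and Z, and TRINITY_DN28881_c0_g1_i2 had 5185, 2992 and 923. Library Z was the lowest for both, by 2.67-fold and 3.32-fold from library X in residual CPM. Cholinesterase (TRINITY_DN27178_c0_g1_i1) had 4.64 ± 2.05 RPKM (SD, n = 3) and was highest in library Z, as was the isoform TRINITY_DN27178_c0_g1_i2, matched to the alpha/beta-hydrolase PUNSTDRAFT_118682, with 9.12 ± 4.49 (SD, n = 3).

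Thioesterases, which cleave the bond between an acyl group and coenzyme A or a carrier protein, were led by TRINITY_DN12212_c1_g1_i1. It had 19.5, 29.3 and 30.9 RPKM in libraries X, Y and Z, a mean of 26.6 ± 6.15 (SD, n = 3). The next, TRINITY_DN29493_c0_g1_i3, had 1.39 ± 0.408 (SD, n = 3). The protein phosphatase methylesterase, which removes a methyl group from a phosphatase subunit, had 0.750 ± 0.222 RPKM in TRINITY_DN25413_c0_g1_i1 and 0.705 ± 0.0672 in TRINITY_DN25413_c0_g1_i4 (SD, n = 3). The DHH phosphoesterase isoforms TRINITY_DN22961_c0_g1_i1 and TRINITY_DN22961_c0_g1_i2 had 0.911 ± 0.319 and 0.725 ± 0.235 RPKM (SD, n = 3).

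How much of each member could be read depended on its match. P. strigosozonata, a fungus of the same order as V. comedens, was the best match of 138 members with a median length of 1320 bp. T. versicolor was that of 123 members with a median of 347 bp, S. hirsutum that of 12 and M. roreri that of 3. At least 10 reads in every library were counted for 161 of the 276 members (58.3%), against 53.9% of all matched transcripts. By the best-read member of each assembler gene it held for 83 of 192 (43.2%), against 41.6%. Among P. strigosozonata matches this held for 115 of 138 members (83.3%), against 84.6% of all transcripts with such a match. Among T. versicolor matches it held for 34 of 123 members (27.6%), against 27% in all. The shares of the family thus lay near those of its background.

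Within the T. versicolor matches, length separated the readable from the sparse members. All 25 members of at least 1000 bp had at least 10 reads in every library, and so did 9 of the 98 shorter ones. All transcripts with such a match were not split by length, so whether this is particular to the family was not tested. The longer 25 held 91.7% of the summed RPKM of these matches, and the leading member alone 62.7%. Over 90% of depth-scaled reads fell in library X for 5 of the 52 T. versicolor-matched members with at least 20 reads, against 8.5% of all such transcripts. These 5 were 3 alpha/beta-hydrolases and 2 lysophospholipases of 368 to 769 bp, and they held 167 reads, or 0.0248% of the family's reads. No member had 0 reads in all 3 libraries, but 8 had 0 in library X, 62 in library Y and 60 in library Z. Library X was the deepest, and zeros were not counted over all matched transcripts, so whether these numbers are particular to the family was not tested. A count of 0 allows up to 3 counts, which is 0.0897 residual CPM in library X, 0.133 in library Y and 0.152 in library Z.

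**Figure D3:**
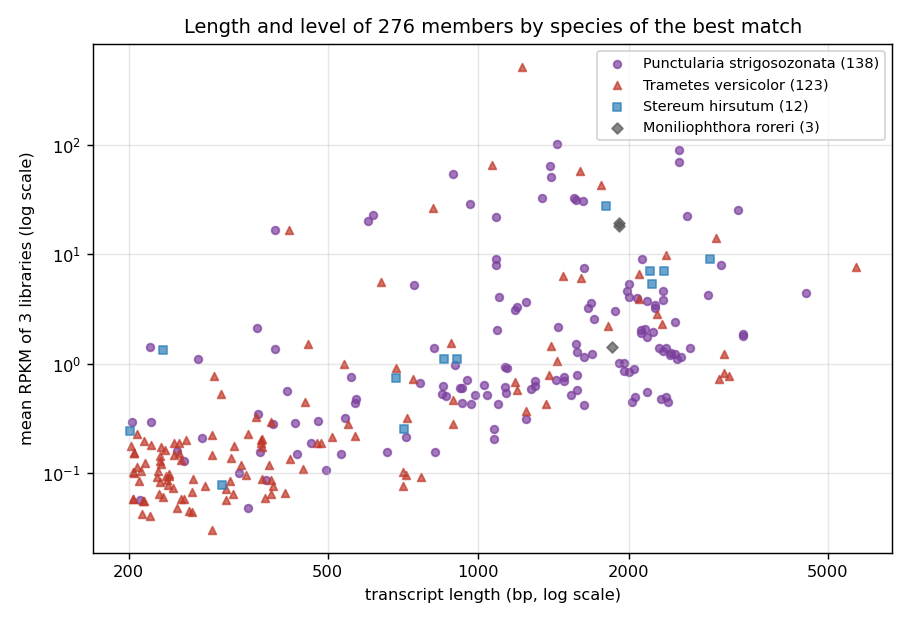
Length (bp, log axis) and mean RPKM (log axis) of the 276 members, with colour and shape for the species of the best match. T. versicolor matches crowd at the lower left, at a median of 347 bp and 0.161 RPKM, apart from 25 of at least 1000 bp, while P. strigosozonata matches have a median of 1320 bp and 1.10 RPKM. Over all transcripts with such matches, not plotted, the medians were 0.152 RPKM for T. versicolor and 1.60 RPKM for P. strigosozonata.

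The spread between the 3 replicate libraries was wider in this family than over all matched transcripts, as a description. Of the 161 members with at least 10 reads in every library, 45 (28.0%) were over 2-fold apart between the highest and lowest library in residual CPM, against 17.3% of all matched transcripts with such reads. The median fold was 1.54 for the members and 1.46 for all. Among transcripts with at least 1000 reads, where counting error is small, 18 of 68 members (26.5%) were over 2-fold apart, against 8.7% in all. Keeping 1 transcript per assembler gene, so that isoforms were not counted apart, 22 of 83 members (26.5%) were, against 16.9% in all, and 11 of 46 (23.9%) of those with at least 1000 reads, against 8.91%. The share was 26.1% among P. strigosozonata matches, against 15.9% in all, and 26.5% (9 of 34) among T. versicolor matches, against 18.9% in all. By class, 20 of 93 alpha/beta-hydrolases (21.5%) and 1 of 15 phospholipases (6.67%) were over 2-fold apart. Higher shares came from classes with few transcripts, with 7 of 12 other esterases, 6 of 12 lipases and 5 of 13 thioesterases. The same held for 4 of 7 feruloyl esterases and 2 of 2 phosphoesterases. Isoforms were counted apart here. Assembler genes with at least 1 member over 2-fold were 14 of 54 for alpha/beta-hydrolases and 1 of 8 for phospholipases. They were 6 of 7 for other esterases, 3 of 6 for lipases and 3 of 4 for thioesterases. Feruloyl esterases had 1 of 2 and phosphoesterases 1 of 1. This gene count was not made over all matched transcripts. No carboxylesterase (1), cutinase (2) or protein methylesterase (4) was over 2-fold apart.

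Library X was the highest for 44 of the 161 members (27.3%), against 35.9% of all matched transcripts, and library Y for 43 (26.7%), against 34.3%. Library Z was the highest for 74 (46.0%), against 29.8%. Library Z was also the highest for 39 of 83 (47.0%) with 1 transcript per assembler gene, against 30.2% in all. Over 2-fold with library Z highest were 25 members (15.5%), against 5.52%. Library X was the highest over 2-fold for 15 members (9.32%), against 7.44%, and library Y for 5 (3.11%), against 4.35%. By class, library Z led for 44 of 93 alpha/beta-hydrolases, 7 of 12 lipases, 7 of 12 other esterases and 7 of 7 feruloyl esterases. It led for 3 of 4 protein methylesterases and 1 of 2 cutinases. For thioesterases it led for only 4 of 13 and for phospholipases for 1 of 15. It led for 0 of 2 phosphoesterases and 0 of 1 carboxylesterases. With 1 transcript per assembler gene, library Z led for 27 of 53 alpha/beta-hydrolases, 2 of 6 lipases, 3 of 6 other esterases and 2 of 2 feruloyl esterases. For lipases it was then library X that led most often, for 4 of 6. Library Z led for 2 of 4 thioesterases and 1 of 8 phospholipases on this count. All 5 lipase transcripts over 2-fold with library Z highest had library Y as the lowest, and 3 of them were the isoforms of TRINITY_DN23033_c1_g1.

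The 2-fold calls depended on library Z in particular. Between libraries X and Y alone, 16 of 165 members (9.70%) were over 2-fold apart, against 8.08% of matched transcripts. Between X and Z there were 24 of 165 (14.5%), against 9.51%, and between Y and Z 30 of 162 (18.5%), against 10.2%. Without library Z the share of the family was close to its background.

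**Figure D4:**
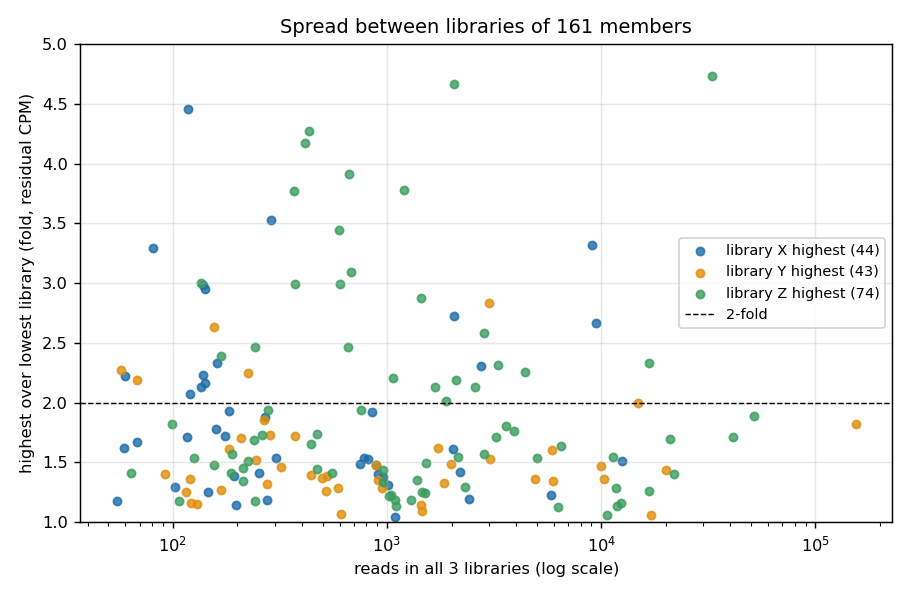
Fold between the highest and lowest library in residual CPM, against the reads of each of 161 members over all libraries (log axis), coloured by the highest library; the dashed line is 2-fold. Of the 45 points above the line, 25 belong to library Z, and the 2 highest points, at 4.74-fold and 4.67-fold, are TRINITY_DN24256_c0_g1_i1 and TRINITY_DN23033_c1_g1_i2.

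Assembler genes did not always keep 1 product name. Members were single transcripts in 146 of the 192 assembler genes and 2 to 6 isoforms in the other 46. In 23 assembler genes at least 1 isoform was no member, 18 of them with an isoform that had no match and 5 with an isoform matched to another product. The abundant TRINITY_DN25086_c1_g1_i1, matched to an alpha/beta-hydrolase of T. versicolor, shared its assembler gene with TRINITY_DN25086_c1_g1_i2, matched to putative acetylxylan esterase A of P. strigosozonata. The acetylxylan esterase isoform had 13.4, 3.35 and 42.8 RPKM in libraries X, Y and Z, 13.7-fold apart in residual CPM, beside 1.06-fold for the alpha/beta-hydrolase isoform. The sources used here do not state how reads common to isoforms were shared out.

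Fatty acids and glycerol released by lipases enter further steps, for which 9 word lists were drawn up, and 8 of them matched transcripts. Together these 99 transcripts, 54 of them with at least 10 reads in every library, summed to 3335 ± 588 residual CPM, against 9012 ± 709 for the 276 lipase and esterase transcripts (SD, n = 3 each). The glyoxylate cycle list, which lets a fungus build sugars from acetyl units, was the highest per length, with 201, 465 and 359 RPKM in libraries X, Y and Z. Its leading transcript, the malate synthase TRINITY_DN27962_c0_g1_i1, had 185 ± 73.6 RPKM (SD, n = 3). The word pattern also took in 8 transcripts of 2-isopropylmalate synthase, an enzyme of leucine synthesis.

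Acyl-CoA oxidases and dehydrogenases, which open beta-oxidation, comprised 38 transcripts with 118 ± 38.2 RPKM in sum (SD, n = 3), and 13 of the 28 with at least 10 reads in every library were over 2-fold apart between libraries, against 17.3% of all matched transcripts. Ketoacyl-CoA thiolase, the enzyme that splits off acetyl-CoA, had 98.5, 115 and 94.1 RPKM in libraries X, Y and Z over 4 transcripts. Enoyl-CoA hydratases (10 transcripts) summed to 17.1 ± 1.74 RPKM, glycerol-3-phosphate dehydrogenase (2) to 14.2 ± 1.46 and glycerol kinase (2) to 13.1 ± 4.24 (SD, n = 3 each). The acyl-CoA synthetase list had 23.4 ± 4.50 RPKM (SD, n = 3), but its 19 transcripts were mostly acetate and succinate ligases, and only 2 were long-chain fatty acid ligases. The acylglycerol synthesis list matched only 3 transcripts, all named lipid droplet-associated perilipin protein, and none had 10 reads in every library. No transcript named as a synthesis enzyme was matched, so the level of that step was not measured by this list.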

How the data were processed

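The table deposited by the authors held raw read counts and a length for each assembled transcript, with 3 unnamed count columns, here X, Y and Z in file order, which could be assigned to the group and not to single samples. SAMtools 0.1.19, Bowtie2 2.2.6 and cutadapt 1.2.1 appear, per the submitters' processing notes, with no stated role. Assembler, counting rule and use of strand were not given in the sources used here. Per the file headers, transcripts were matched to a database of the authors' own. Of 29875 match lines, repeats were dropped, and a product name is that of an entry in another species.

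Members were chosen by words in the name and split into 10 classes, the first matching word deciding. The members and lists were chosen with earlier results of these data known. RPKM and residual CPM were computed with pandas 2.3.3. Named transcripts had at least 300 bp and 100 reads. They were the 15 highest in RPKM, the 2 highest of each class and the 5 most uneven. A few others are named for values already seen. Alternatives included edgeR 4.0.16 TMM and DESeq2 1.42.0 size factors. No sequences of the transcripts were used here.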

Additional observations from a re-analysis of the deposited data

How the results depend on the processing

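Scaling by edgeR's TMM or DESeq2's size factors kept every class sum, pathway sum and the family's sum and median within 1 SD of the reported value. Leaving out 1 library gave medians of 0.536 to 0.593 RPKM and 16 to 30 members over 2-fold, the fewest without library Z and 24 without library Y, where 2 libraries can differ less often than 3. The perilipin sum was 0.153 RPKM without library X, against 0.377 with all 3. With P. strigosozonata matches alone, the family had 909 RPKM, 4897 residual CPM and a median of 1.10 RPKM, and alpha/beta-hydrolases had 726 RPKM, other esterases 93.9, lipases 10.9 and thioesterases 7.06. Without alpha/beta-hydrolases, thioesterases, phosphoesterases and methylesterases, the other 65 members had 271 RPKM, 1679 residual CPM and a median of 1.23 RPKM. The median was 0.854 RPKM without transcripts of under 10 reads, 1.27 with at least 500 bp and 0.248 with reads summed by assembler gene. The following were chosen after seeing the data. With 1 transcript per assembler gene, 83 members had 10 reads in every library and 22 were over 2-fold apart. With at least 1000 reads, 18 were over 2-fold apart. Without TRINITY_DN21528_c0_g1_i1 the sum was 1314 RPKM. Depth limits the 53 members with fewer than 10 reads in total. No paired analysis was possible because the libraries form 1 group.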
